A study of Mus musculus with 13 samples.

Results

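The genes of the major histocompatibility complex (MHC) and of antigen presentation were followed through 13 arcuate nucleus libraries. Members were the protein-coding genes whose symbol starts with H2-, of which there were 34, and 9 further genes of the same pathways, B2m, Tap1, Tap2, Tapbp, Psmb8, Psmb9, Nlrc5, Cd74 and Ciita. They made up 43 of the 55421 gene identifiers in the deposited count table. The arcuate nucleus is a hypothalamic region that controls feeding, and each library came from the bulk tissue of 1 mouse aged 20 weeks. The mice were Klf4 KO, in which Cre recombinase driven from Agrp removes a floxed Klf4, or control littermates. A high-fat diet (HFD) was given to 3 KO and 4 controls, and chow alone to 3 KO and 3 controls. By the sex letters in the titles, each group held males and females. HFD mice ate that diet for the last 10 weeks. The deletion is limited to Agrp-expressing cells, which are neurons, so most cells of each sample were not targeted. No source used here says whether the control mice carried Cre.

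MHC class I molecules present peptides made inside the cell and are formed by a heavy chain and the light chain beta-2-microglobulin (B2m). The peptides are cut by the immunoproteasome (Psmb8, Psmb9), carried into the endoplasmic reticulum by the transporter Tap1 and Tap2, and loaded with the help of tapasin (Tapbp), while Nlrc5 activates the class I genes. MHC class II molecules present peptides taken up from outside and are formed by an alpha and a beta chain (H2-Aa with H2-Ab1), with the invariant chain Cd74 and the exchange factors H2-DM and H2-O controlling what is loaded, and Ciita as their activator. In the healthy brain, class I is low in most cells and induced by interferon, and class II is largely held by macrophages at the borders of the tissue, such as those around vessels and in the meninges.

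By role the members were 2 classical class I heavy chains (H2-K1, H2-D1), 22 non-classical class I genes, 7 class I pathway genes, 9 class II chains and exchange factors, 2 class II pathway genes and H2-Ke6. H2-Ke6 lies within the MHC but encodes a hydroxysteroid dehydrogenase and no MHC chain. All but 4 members lie on chromosome 17. The promoters of the genes with the main patterns are shown because class I and class II genes carry different control elements. Each window runs from 250 bases before to 50 bases after the RefSeq gene start (build GRCm38.p6), on the gene's own strand. Capitals mark GGGGATTCC (a kappaB element), GTTTCACTT (an interferon response element) and ATTGG or its complement CCAAT (the Y box), searched on both strands, and no matches overlapped in the windows shown.
H2-K1: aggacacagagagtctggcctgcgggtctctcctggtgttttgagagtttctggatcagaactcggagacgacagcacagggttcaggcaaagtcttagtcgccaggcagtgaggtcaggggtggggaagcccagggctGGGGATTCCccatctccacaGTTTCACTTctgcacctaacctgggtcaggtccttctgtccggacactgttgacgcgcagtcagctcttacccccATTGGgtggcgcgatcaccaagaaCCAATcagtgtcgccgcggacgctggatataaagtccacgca
H2-D1: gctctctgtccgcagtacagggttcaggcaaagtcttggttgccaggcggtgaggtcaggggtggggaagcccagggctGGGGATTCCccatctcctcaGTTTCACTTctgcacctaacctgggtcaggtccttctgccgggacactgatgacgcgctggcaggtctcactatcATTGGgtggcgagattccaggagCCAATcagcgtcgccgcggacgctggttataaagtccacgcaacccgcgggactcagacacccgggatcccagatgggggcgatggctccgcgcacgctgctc
H2-M3: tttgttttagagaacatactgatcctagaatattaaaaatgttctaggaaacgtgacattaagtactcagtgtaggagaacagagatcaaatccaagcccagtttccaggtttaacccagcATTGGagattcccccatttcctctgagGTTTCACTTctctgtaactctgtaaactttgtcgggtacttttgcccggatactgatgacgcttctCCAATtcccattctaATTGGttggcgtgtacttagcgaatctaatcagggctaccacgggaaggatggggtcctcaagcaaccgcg
H2-Aa: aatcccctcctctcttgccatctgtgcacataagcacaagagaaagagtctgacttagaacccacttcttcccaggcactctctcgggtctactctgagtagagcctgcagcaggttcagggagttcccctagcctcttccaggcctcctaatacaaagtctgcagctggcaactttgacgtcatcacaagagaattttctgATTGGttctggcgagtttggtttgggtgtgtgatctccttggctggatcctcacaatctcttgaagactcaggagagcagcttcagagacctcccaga
H2-Eb1: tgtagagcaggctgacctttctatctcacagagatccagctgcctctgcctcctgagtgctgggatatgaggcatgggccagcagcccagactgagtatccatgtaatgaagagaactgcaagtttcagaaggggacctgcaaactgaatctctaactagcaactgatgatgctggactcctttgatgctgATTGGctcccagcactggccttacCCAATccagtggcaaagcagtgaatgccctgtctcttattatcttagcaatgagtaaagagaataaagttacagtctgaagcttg
These windows are chr17:34000298-34000597 (minus strand, the first of 2 starts), chr17:35262844-35263143 (plus), chr17:37269984-37270283 (plus), chr17:34287774-34288073 (minus) and chr17:34305617-34305916 (plus). RefSeq windows were found for 36 of the 43 members. The kappaB letters stood in 4 of these 36 (H2-K1, H2-D1, H2-Q6 and H2-Q7), against 0.25% of 32851 windows of the same length. The interferon letters stood in 9 of 36, all of them class I heavy-chain genes, against 0.399% of all windows. The Y box letters stood in 32 of 36 and in 37.4% of all windows. In H2-K1 and H2-D1 the kappaB and interferon letters stood close together. H2-M3, a class I molecule that presents formylated peptides, had the interferon letters, and H2-Aa and H2-Eb1 had only Y box letters. The windows of the class I genes H2-Q2 and B2m, not shown, also had only Y box letters.

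Counts summed to 34.7 to 68.2 M per library (M is 1000000), so that 1 count was worth 0.0147 to 0.0288 CPM (counts per M, after TMM scaling of library sizes wherever a level is given). Of the 43 members, 32 had a read in every library, 7 in some and 4 in none (H2-M9, H2-M10.5, H2-M10.6 and H2-M11). The expression filter kept 32 members among 23622 genes tested. Klf4 did not separate the genotype labels in bulk tissue, at 2.16 to 5.75 CPM in KO libraries and 1.60 to 5.47 CPM in control libraries. Replicate numbers used here follow the order of the samples within each group, as the labels give none. The library labelled Control_HFD replicate 3 had the Hsd11b2 level of the KO libraries, 63.4 CPM, against 60.8 to 69.3 CPM in KO and 0.339 to 1.57 CPM in the 6 other control libraries. The library labelled Control_Chow replicate 3 carries the sex letter F but had 0.691 CPM of Xist and 103 CPM of Ddx3y. All chow controls were thus male-type by the reads, with Xist at 0.491 to 1.19 CPM and Ddx3y at 99 to 115 CPM. The other groups held both kinds, with Xist at 0.592 to 64.2 CPM in KO on chow and 0.459 to 56.7 CPM in controls on HFD. The main fit used the sex letter. Members' values without both doubted libraries are given beside the fold changes they move by more than 1.5 times. By the titles, the first of these libraries has the same mouse number as KO_HFD replicate 2, with another suffix, and Control_HFD replicates 1 and 2 have a number in common. What such a number marks is not stated.

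Per unit of transcript length, class I was the larger class in every library. The 24 class I heavy chains summed to 454, 523 and 753 TPM (transcripts per M) in KO on HFD, and to 346, 696, 407 and 555 TPM in controls on HFD. On chow they summed to 430, 393 and 460 TPM in KO and to 401, 306 and 326 TPM in controls. The class II chains and exchange factors together summed to 25.0 to 116 TPM over the libraries, and class I exceeded class II by 5.23 to 15.9 times. H2-K1 and H2-D1 alone held 48.5% to 74.0% of the class I sum, with a median of 59.5%. H2-Q2, a non-classical gene, held 7.48% to 31.8% of it.

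The balance between the classes moved mainly with class II. The classical class II chains H2-Aa, H2-Ab1 and H2-Eb1 summed to 13.4, 50.5 and 84.0 TPM in KO on HFD, against 5.60, 66.6, 17.5 and 71.4 TPM in controls on HFD. On chow they summed to 8.13, 30.7 and 18.9 TPM in KO, against 45.1, 7.79 and 6.63 TPM in controls. The span from the lowest to the highest library was 15-fold, against 3.52-fold for H2-K1 plus H2-D1 and 2.06-fold for the exchange factors. The lowest and the highest class II libraries were both on HFD, Control_HFD replicate 1 and KO_HFD replicate 3, and the groups overlapped on each diet. The ratio of classical class I to classical class II ran between 4.78 in Control_Chow replicate 1 and 33.4 in Control_HFD replicate 1.

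**Figure D1:**
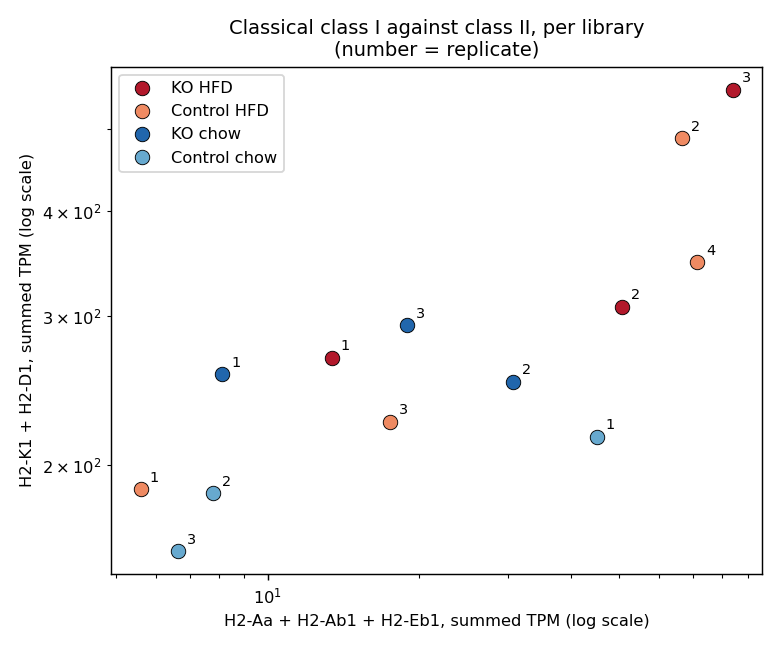
Summed TPM of the classical class I genes H2-K1 and H2-D1 (vertical, log scale) against that of the class II genes H2-Aa, H2-Ab1 and H2-Eb1 (horizontal, log scale), 1 point per library, coloured by group and numbered by replicate. Class II spans 5.60 to 84.0 TPM and class I 158 to 557 TPM, and every group is spread along the class II axis.

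H2-K1 (chromosome 17, 33996017 to 34000347, minus strand, mm10) was at 58.7, 72.4 and 148 CPM in KO on HFD and at 40.5, 117, 50.3 and 91.8 CPM in controls on HFD. On chow it was at 66.4, 55.2 and 73.4 CPM in KO and at 45.7, 42.2 and 34.8 CPM in controls. The 3 chow controls were lower than all 3 chow KO libraries, while on HFD the genotypes overlapped. H2-D1 (35262730 to 35267499, plus strand) was at 199, 232 and 379 CPM in KO on HFD, against 133, 342, 161 and 250 CPM in controls on HFD. On chow it was at 181, 178 and 208 CPM in KO and at 146, 125 and 109 CPM in controls. For H2-D1 as for H2-K1, the 4 lowest libraries were the 3 chow controls and Control_HFD replicate 1. Of 50-base words in their transcripts, 9.63% for H2-K1 and 12.8% for H2-D1 also occur in transcripts of other genes, mostly other class I genes, so a part of their reads could be assigned to either.

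B2m (chromosome 2, 122147686 to 122153083, plus strand), which shares no such word with another gene, was at 102, 147 and 208 CPM in KO on HFD, against 79.3, 187, 111 and 135 CPM in controls on HFD. On chow it was at 92.8, 99.3 and 126 CPM in KO, against 81.8, 67.5 and 60.7 CPM in controls. Again the chow genotypes were separate and the HFD genotypes overlapped. The transporter gene Tap1 was at 13.6, 19.4 and 20.9 CPM in KO on HFD, against 8.41, 22.1, 12.7 and 13.8 CPM in controls. On chow Tap1 was at 13.3, 13.1 and 16.3 CPM in KO, against 9.73, 11.1 and 6.33 CPM in controls. The immunoproteasome gene Psmb8 was at 11.7, 15.1 and 26.2 CPM in KO on HFD and at 6.44, 18.9, 7.92 and 12.9 CPM in controls. On chow Psmb8 was at 9.03, 11 and 12 CPM in KO, against 7.33, 6.69 and 5.20 CPM in controls. Both thus had no overlap between genotypes on chow. Tap2 ranged over 17.9 to 55.1 CPM, Tapbp over 78.0 to 160 CPM and Psmb9 over 2.38 to 9.28 CPM, each lowest in Control_Chow replicate 3 and highest in KO_HFD replicate 3. The activator Nlrc5 was at 2.52, 4.09 and 4.57 CPM in KO on HFD, against 2.47, 4.87, 1.86 and 1.48 CPM in controls, and at 2.02, 2.75 and 3.45 CPM in KO on chow, against 2.48, 1.39 and 0.664 CPM in controls. Its genotypes overlapped on both diets.

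**Figure D2:**
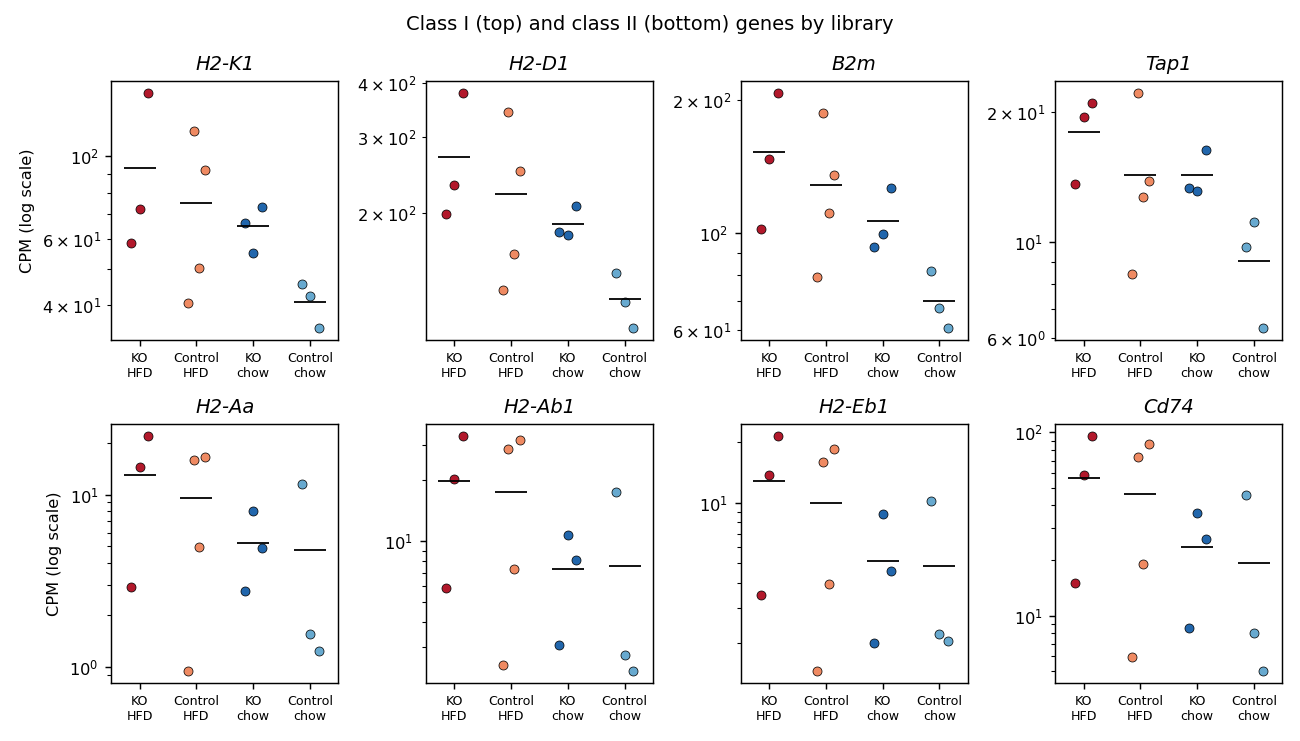
Level of 4 class I genes (top) and 4 class II genes (bottom) in CPM on a log scale, 1 point per library, with the group mean as a horizontal line (KO HFD n = 3, control HFD n = 4, KO chow n = 3, control chow n = 3). The class I genes have no overlap between KO and control on chow, and the class II genes overlap between genotypes on both diets.

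The class II genes were spread within each group. H2-Aa (chromosome 17, 34282744 to 34287823, minus strand) was at 2.89, 14.4 and 21.9 CPM in KO on HFD, against 0.945, 15.9, 4.96 and 16.6 CPM in controls on HFD. On chow it was at 2.74, 8.05 and 4.87 CPM in KO and at 11.5, 1.55 and 1.24 CPM in controls. Its span over libraries was 23.2-fold, and its lowest library still had 62 reads. The invariant chain Cd74 was at 15, 58.4 and 95.6 CPM in KO on HFD and at 5.94, 73.5, 19.0 and 86.6 CPM in controls. On chow Cd74 was at 8.53, 36.5 and 26.3 CPM in KO and at 45.3, 8.06 and 4.98 CPM in controls. The same libraries were high and low as for H2-Aa, and 1 library of the chow controls exceeded every chow KO library. H2-Ab1 ranged over 2.29 to 33.1 CPM and H2-Eb1 over 1.46 to 21.5 CPM, both highest in KO_HFD replicate 3. The activator Ciita had a smaller span of 1.76-fold, 1.21 to 2.14 CPM, and the exchange factor gene H2-DMa one of 1.38-fold, 15.3 to 21.1 CPM. The median span was 1.53-fold over the 17719 genes tested with a mean of at least 1 CPM. The H2-DM beta chain genes H2-DMb1 (1.10 to 7.62 CPM) and H2-DMb2 (0.434 to 4.23 CPM) spanned more, but 22.7% and 25.9% of their 50-base words occur in other transcripts, mostly in each other's. H2-Oa and H2-Ob were at 0.0914 to 0.594 CPM and 0.307 to 1.52 CPM. In bulk tissue, fewer cells of a type and less RNA per cell cannot be told apart.

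**Figure D3:**
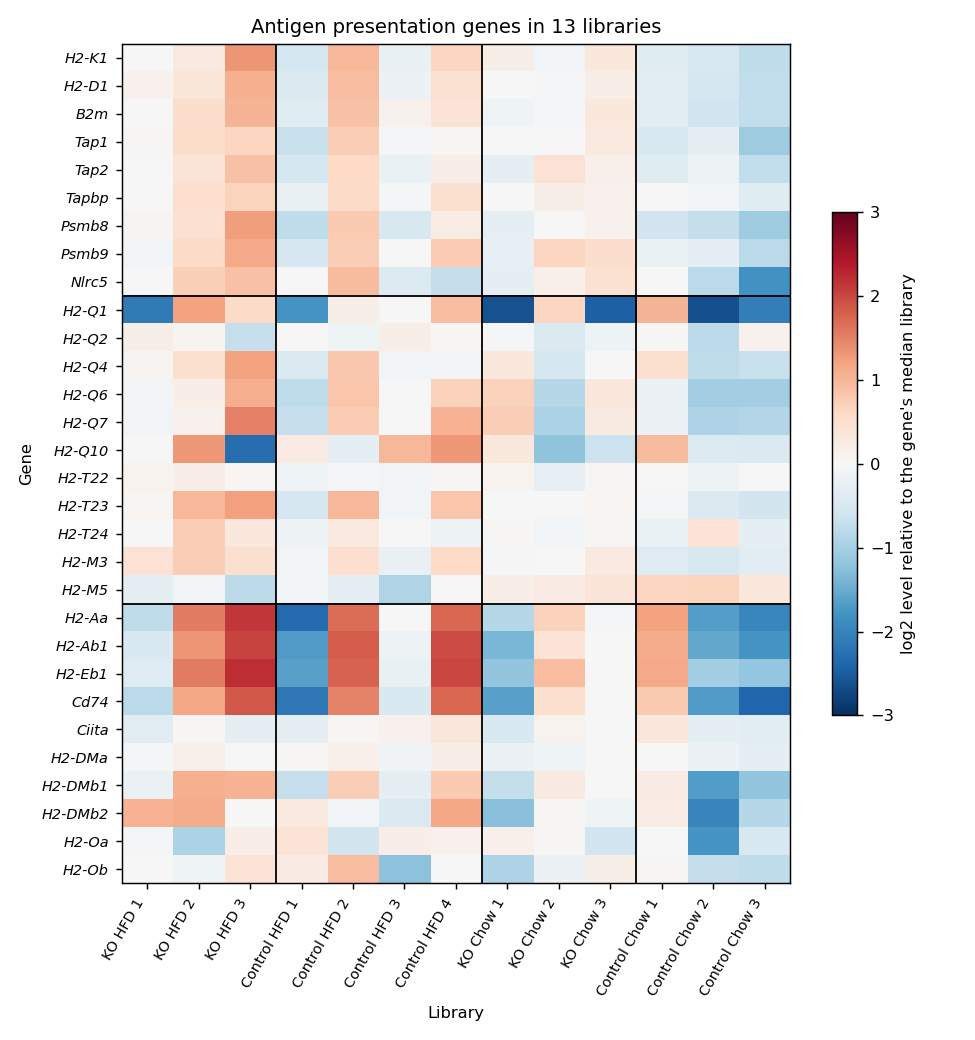
Level of 30 members (rows) in the 13 libraries (columns), as log2 of CPM plus 0.05 relative to each gene's median library. Lines separate the 4 groups and, from top to bottom, the classical and pathway class I genes, the non-classical class I genes, and the class II genes. H2-Aa, H2-Ab1, H2-Eb1 and Cd74 share their high and low libraries, and H2-Q1 is high in 7 libraries and low in 6.

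Genes with a pattern near on or off between mice were looked for, because inbred strains can differ in MHC haplotype. The rule asked for a highest library of at least 1 CPM and at least 10 times the lowest library, with the lowest taken at no less than 3 counts. It held for 6 of the 43 members, H2-Aa, H2-Ab1, H2-Eb1, Cd74, H2-Q1 and H2-Q10, and for 668 of 23622 genes tested (2.83%). At a fold of 5 it held for 11 members and 5.72% of the genes tested, and at a fold of 20 for H2-Aa alone and 1.37% of the genes tested. Of the 138 tested non-member genes in the MHC interval (chromosome 17, 33996017 to 37483552), 2 met it, Ager and Gm11131. Of the 6 members, Cd74 lies outside this interval. No member with a highest library of at least 1 CPM was at 0 in any library. H2-Ea-ps, annotated as a polymorphic pseudogene and therefore no member, was at 0 to 0.025 CPM. Whether the mice differed in haplotype was not tested.

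H2-Q1 was the member with the clearest break between libraries. It was at 0.764, 8.16 and 5.27 CPM in KO on HFD and at 0.990, 3.95, 3.51 and 6.75 CPM in controls on HFD. On chow it was at 0.529, 5.50 and 0.605 CPM in KO and at 7.21, 0.525 and 0.802 CPM in controls. In 6 libraries it was at or below 0.990 CPM, in the other 7 at or above 3.51 CPM, and each group held both kinds. Its neighbour H2-Q2 spanned 1.96-fold, 40.7 to 79.7 CPM, against the median span of 1.53-fold given above. H2-Q1 shares 15% of its 50-base words with other transcripts, mostly those of H2-Q2. H2-Q10, known in mice as a secreted class I molecule of the liver, was at 0.232 to 3.37 CPM and lowest, at 12 reads, in KO_HFD replicate 3.

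Of the other non-classical genes, H2-T23 (Qa-1, a ligand of receptors on natural killer and T cells) ranged over 16.1 to 55.4 CPM. H2-T22 ranged over 23.4 to 31.9 CPM, with 53.5% of its 50-base words shared, mostly with H2-T10 and an antisense gene. H2-Q4, H2-Q6 and H2-Q7 were at 0.548 to 2.28, 3.46 to 15.3 and 2.10 to 11.7 CPM, and between 26.5% and 36.4% of their words were shared. H2-T24 was at 2.71 to 5.59 CPM. H2-M10.2, H2-M5 and the 11 members that failed the filter or had no read stayed under 1 CPM in every library, as did H2-Oa. For the 4 members with no read, 3 counts would be 0.0440 to 0.0864 CPM of the library, which is the limit that a count of 0 allows, for counting error only.

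KO was compared with control on HFD to ask whether deletion of Klf4 in Agrp cells changed these genes under that diet. With edgeR's quasi-likelihood test, 0 of 32 members had an adjusted p under 0.05, as did 0 of 23622 genes (0%). At an unadjusted p under 0.05 there were also 0 members, against 1.66% of all genes. DESeq2 and voom called 0 members as well. The fitted log2 fold changes were 0.29 ± 0.42 (SE) for H2-K1, 0.28 ± 0.33 for H2-D1 and 0.21 ± 0.30 for B2m, each with an edgeR adjusted p of 1. All 3 rest on KO_HFD replicate 3, without which they were -0.19, -0.04 and -0.05. Without both doubted libraries they were 0.01, 0.05 and 0.02. Psmb8 was at 0.59 ± 0.38, Tap1 at 0.35 ± 0.30 and Nlrc5 at 0.66 ± 0.47, and these were 0.29, 0.20 and 0.29 without both doubted libraries. Of the class I members 16 of 21 had a positive value (median 0.27), and of the class II members 6 of 10 (median 0.03), against a median of 0 over all genes tested. H2-T22 (0.17 ± 0.09) was the 1 member of 32 whose KO libraries were all above the control libraries, against 1.87% of all genes tested. It stayed the only one without the library labelled Control_HFD replicate 3, when 3.32% of all genes did so, and 3 members did so without KO_HFD replicate 1 (6.47% of all genes) and 4 without Control_HFD replicate 2 (4.08%). Exact two-sided permutation tests on log2(CPM + 1) gave p = 0.6 for H2-K1, 0.486 for H2-D1, 0.543 for B2m, 0.657 for H2-Aa, 0.743 for H2-Ab1, 0.657 for H2-Eb1 and 0.686 for Cd74, where the smallest possible p is 0.0286.

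On chow the same comparison asked for the effect of the deletion without HFD. Here 9 of the 32 members tested had every KO library above every control library, namely B2m, H2-K1, H2-D1, Tap1, Tapbp, Psmb8, H2-T23, H2-M3 and H2-Ke6. Over all genes tested the share was 10.1%. By Xist and Ddx3y the control libraries on chow were all male-type, and the KO libraries on chow were of both kinds. The 9 were the same without the library labelled Control_Chow replicate 3 (13.2% of all genes), while 17 members did so without Control_Chow replicate 1 (13.9% of all genes). None passed the test, as 0 of 32 members and 0% of all genes had an edgeR adjusted p under 0.05. The log2 fold changes were 0.65 ± 0.45 for H2-K1, 0.57 ± 0.36 for H2-D1, 0.55 ± 0.33 for B2m, 0.68 ± 0.34 for Tap1, 0.70 ± 0.42 for Psmb8 and 1.08 ± 0.54 for Nlrc5, with edgeR adjusted p between 0.426 and 0.574. Without both doubted libraries they were 0.34 for H2-K1, 0.31 for H2-D1, 0.25 for B2m, 0.32 for Tap1, 0.33 for Psmb8 and 0.43 for Nlrc5. Leaving out Control_Chow replicate 3 alone gave 0.34 for B2m, 0.38 for Tap1, 0.46 for Psmb8 and 0.58 for Nlrc5. Tapbp and H2-T23 were at 0.22 ± 0.23 and 0.29 ± 0.41, and both were at -0.06 without both doubted libraries. The chow groups were also apart in some tissue markers. The 7 arcuate neuron markers summed to 986 to 2510 CPM in KO on chow, against 561 to 629 CPM in controls on chow. The 6 ependymal cell and tanycyte markers summed to 126 to 263 CPM in KO and 51 to 114 CPM in controls, with 6 of 6 fold changes positive (median 1.23). The 6 oligodendrocyte markers overlapped, at 2000 to 8590 CPM in KO and 2610 to 4560 CPM in controls, with 6 of 6 positive (median 0.57). Their part in the class I values was not tested. H2-Ke6 alone had an unadjusted edgeR p under 0.05 (0.28 ± 0.10, edgeR adjusted p = 0.280), against 6.84% of all genes higher in KO at that threshold. It shares 70.5% of its 50-base words with the overlapping gene Gm20427. The class I members had a median of 0.46, with 16 of 21 positive, and the class II members one of -0.05, with 5 of 10 positive. Exact two-sided permutation tests gave p = 0.1 for H2-K1, H2-D1 and B2m, the smallest that 3 against 3 mice allow, and p = 0.6 for H2-Aa, 0.8 for H2-Ab1, 1 for H2-Eb1 and 0.7 for Cd74.

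Averaged over both diets, 0 of 32 members passed the edgeR adjusted threshold, with 0% of all genes. Unadjusted edgeR p was under 0.05 and KO higher for 3 members, Nlrc5 (0.87 ± 0.39), H2-M3 (0.38 ± 0.15) and H2-Ke6 (0.16 ± 0.07), against 4.83% of all genes. Their edgeR adjusted p was 0.491 to 0.522. Without both doubted libraries 0 members had an unadjusted p under 0.05, against 7.60% of the genes then tested, and Nlrc5 was at 0.36 and H2-M3 at 0.24. The genotype by diet interaction, which asks whether the KO difference depends on the diet, was called for 0 of 32 members and 0% of all genes. For it 0 members had an unadjusted edgeR p under 0.05, against 5.1% of all genes. The interaction was -0.36 ± 0.60 for H2-K1 and -0.24 ± 0.13 for H2-Ke6.

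HFD was compared with chow within each genotype to ask for the effect of the diet. By Xist and Ddx3y the controls on chow were all male-type, and the controls on HFD were of both kinds. In controls 0 of 32 members passed (0% of all genes), and the class I members had a median log2 fold change of 0.63 and the class II members one of 0.78, against 0.01 over all genes. Unadjusted edgeR p was under 0.05 with HFD higher for 4 of 32 members, against 4.16% of all genes. These were B2m (0.85 ± 0.30), H2-D1 (0.80 ± 0.33), H2-M3 (0.63 ± 0.20) and H2-Ke6 (0.20 ± 0.09), with edgeR adjusted p of 0.568 to 0.603. H2-K1 was at 0.87 ± 0.42, Psmb8 at 0.84 ± 0.39 and Tap1 at 0.67 ± 0.31. Of the class II genes, H2-Aa was at 0.78 ± 1.16 and Cd74 at 0.95 ± 1.15, and both turned to -0.64 and -0.45 without Control_HFD replicate 2. They were 0.20 and 0.39 without both doubted libraries, 0.02 and 0.18 without Control_Chow replicate 3 and 2.70 and 2.67 without Control_Chow replicate 1. Without Control_HFD replicate 2, B2m was at 0.47, H2-D1 at 0.40, H2-K1 at 0.42, Psmb8 at 0.32 and Tap1 at 0.27. The count of members with an unadjusted p under 0.05 in either direction was 13 without Control_HFD replicate 1 (10.3% of the genes then tested) and 2 without both doubted libraries (5.07%).

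H2-M3 and H2-M5 had no overlap between diets in either genotype. H2-M3 was at 9.42, 11.5 and 9.67 CPM in KO on HFD, against 6.77, 6.92 and 8.52 CPM in KO on chow. In controls it was at 6.51, 9.87, 5.90 and 10.5 CPM on HFD, against 5.25, 4.91 and 5.53 CPM on chow. It was the only member with all HFD libraries above chow in controls (4.91% of all genes tested) and in KO (3.80%). H2-M5 ran the other way, at 0.293, 0.347 and 0.193 CPM in KO on HFD against 0.436, 0.446 and 0.504 CPM in KO on chow. In controls it was at 0.350, 0.299, 0.176 and 0.371 CPM on HFD against 0.606, 0.617 and 0.470 CPM on chow. All 7 HFD libraries thus lay below all 6 chow libraries, on 8 to 28 reads per library. It was the only member with all HFD libraries below chow in controls (5.11% of all genes) and in KO (5.03%). Its log2 fold change was -0.87 ± 0.33 in controls (edgeR adjusted p = 0.591) and -0.73 ± 0.35 in KO (edgeR adjusted p = 0.984). In controls it was the 1 member of 32 lower on HFD at an unadjusted p under 0.05, against 3.91% of all genes. A lack of overlap was thus found for 1 of 32 members per direction and genotype, near the shares of all genes. The share of all genes without overlap in both genotypes at once was not computed. These counts of members rest on single libraries. In controls 10 members lay higher on HFD without overlap when Control_HFD replicate 1 was left out and 13 without Control_Chow replicate 1, against 8.95% and 9.43% of all genes.

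**Figure D4:**
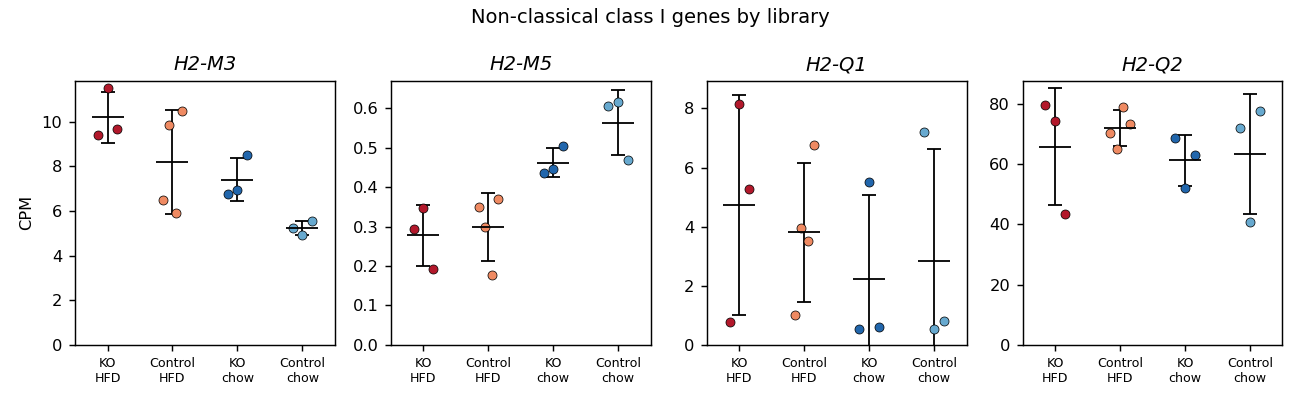
Level in CPM of 4 non-classical class I genes, 1 point per library, with the group mean and SD (bars below 0 are cut at the axis). H2-M3 is higher and H2-M5 lower on HFD within each genotype, H2-Q1 is split within every group, and H2-Q2 spans 1.96-fold.

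In KO mice 0 of 32 members passed for HFD against chow (0% of all genes). H2-M3 was the only member with an unadjusted edgeR p under 0.05 (0.46 ± 0.21, edgeR adjusted p = 0.984), against 1.98% of all genes higher at that threshold. B2m, H2-D1 and H2-K1 were at 0.51 ± 0.32, 0.51 ± 0.34 and 0.51 ± 0.44, and H2-Aa and Cd74 at 1.26 ± 1.17 and 1.22 ± 1.15. All 5 lean on KO_HFD replicate 3, without which they were 0.25, 0.18, 0.01, 0.73 and 0.69. Without KO_HFD replicate 1, which had the lowest class II level of its group, 16 members lay higher on HFD without overlap, among them H2-Aa and Cd74, against 10.9% of all genes. That count was 8 without KO_Chow replicate 3 (9.55% of all genes), 4 without KO_HFD replicate 3 (9.79%) and 3 without KO_Chow replicate 1 (7.53%) or 2 (7.73%). Pituitary and arcuate neuron markers varied too, and their part in the diet values of either genotype was not tested. Pituitary markers summed to 4.97 to 289 CPM in KO and 0.914 to 179 CPM in controls on HFD. On chow they summed to 1.74 to 34.8 CPM in KO and 1.37 to 4.47 CPM in controls. Arcuate neuron markers were higher on HFD for 7 of 7 in controls (median 0.93) and 3 of 7 in KO (median -0.06). Mouse numbers in the titles run in different series for the diets and no batch is given, so diet and any batch that follows those numbers cannot be told apart.

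**Figure D5:**
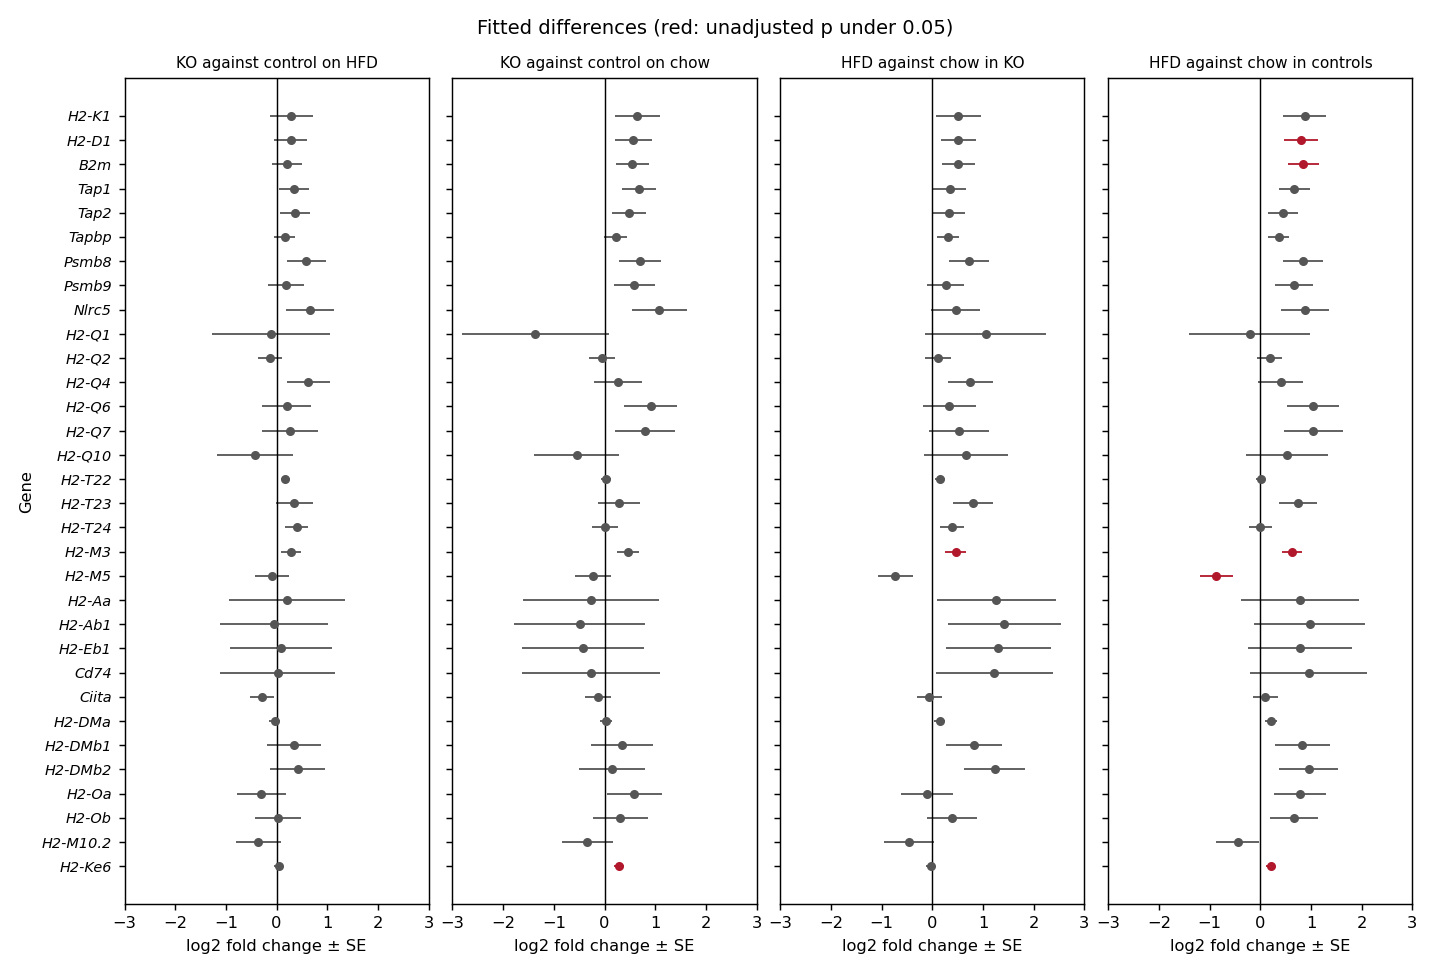
Log2 fold change with its SE for the 32 members tested in 4 comparisons, from the edgeR fit of all 13 libraries, with red for an unadjusted p under 0.05. H2-Aa, H2-Ab1, H2-Eb1, Cd74 and H2-Q1 have the widest errors, and none of the members passed the adjusted threshold.

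Genes that act together varied together over the 13 libraries. Of 12 pairs compared on log2(CPM + 1), with permutation p-values and Benjamini-Hochberg adjustment over the pairs, H2-K1 and H2-D1 had Pearson r = 0.99 and Spearman rho = 0.98 (permutation p = 1e-05 for each, the smallest that 100000 resamples give, adjusted p = 2.4e-05 and 3e-05). H2-Aa and Cd74 had r = 0.99 and rho = 0.99 (permutation p = 1e-05 for each, adjusted p = 2.4e-05 and 3e-05). Without the 2 libraries farthest from the median these were r = 0.97 and 0.98, and within each diet both pairs had r of at least 0.97. Class I and class II were less tied, with r = 0.79 and rho = 0.80 for H2-K1 and H2-Aa (permutation p = 0.00115 and 0.00171, adjusted p = 0.00138 and 0.00228). Their r was 0.68 without the 2 farthest libraries, 0.90 within HFD and 0.37 within chow. The values within a diet rest on few libraries and were not tested. Ciita and H2-Ab1 had r = 0.66 and rho = 0.67 (permutation p = 0.0179 and 0.0154, adjusted p = 0.0179 and 0.0154), with r = 0.52 without the 2 farthest libraries, 0.47 within HFD and 0.97 within chow.

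Macrophage and microglia markers moved with the members. Cd74 and Mrc1, a marker of border-associated macrophages, had r = 0.94 and rho = 0.94 (permutation p = 2e-05 for each, adjusted p = 4e-05 and 3.43e-05), with r = 0.92 without the 2 farthest libraries, 0.95 within HFD and 0.96 within chow. B2m and the microglia marker Aif1 had r = 0.93 and rho = 0.95 (permutation p = 3e-05 and 2e-05, adjusted p = 5.14e-05 and 3.43e-05), with 0.88 without the 2 farthest libraries, 0.92 within HFD and 0.86 within chow. The 10 border-associated macrophage markers summed to 14.2, 24 and 37.2 CPM in KO on HFD and to 10.5, 26.7, 14.6 and 38.2 CPM in controls on HFD. On chow they summed to 7.43, 24.1 and 18.6 CPM in KO and to 24, 9.27 and 11.5 CPM in controls, with Ccl24 at 0 in some libraries. Libraries high in class II were thus high in this sum too. Much of this sum was Stab1, at 9.76 of 14.2 CPM in KO_HFD replicate 1 and 19.7 of 37.2 CPM in KO_HFD replicate 3. The tie was not limited to macrophage markers. The 6 mural cell markers summed to 175 CPM in KO_HFD replicate 3 and 240 CPM in Control_HFD replicate 4, both high in class II. They summed to 124 CPM in Control_HFD replicate 1 and 96.3 CPM in KO_Chow replicate 1, both low in class II. Summed, the 7 markers of meninges and choroid plexus ran with class II too, at 67.2, 177 and 273 CPM in KO on HFD. Controls on HFD had 44.9, 240, 85.5 and 297 CPM. For chow, KO libraries held 44.4, 114 and 71.1 CPM, while controls held 141, 60.7 and 49.4 CPM. Not every marker followed the sum. Dcn went from 8.29 CPM in Control_HFD replicate 1 to 128 CPM in KO_HFD replicate 3, and Col1a2 from 14 to 75.3 CPM. Col1a1, Lum, Folr1 and Ttr were also higher in the latter library, but Kl was not (16.6 and 15.1 CPM). Ttr was at 0.98 CPM in Control_HFD replicate 4, which was high in class II, against 1.62 CPM in Control_HFD replicate 1. The part of these cells in the class II levels was not tested.

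The 14 microglia markers summed to 680 to 874 CPM in KO on HFD and 605 to 861 CPM in controls on HFD, and to 529 to 711 CPM in KO on chow and 441 to 571 CPM in controls on chow. Their log2 fold changes were positive for 13 of 14 in KO against control on chow (median 0.31) and for 14 of 14 in HFD against chow controls (median 0.46), beside the class I medians of 0.46 and 0.63 above. Unadjusted edgeR p was under 0.05 for 5 and 8 of them, all higher, against 6.84% and 4.16% of all genes. The adjusted threshold was passed by 0 of them. The T cell and NK cell markers summed to 5.98 to 12.9 CPM, lowest in the chow controls, but most of this sum was Trac, at 5.60 to 10.8 CPM. Cd3e, Cd3d, Cd3g, Cd8a and Cd4 stayed under 1 CPM in every library, with Cd3d and Cd3g at 0 in some. The sum thus mainly follows 1 gene. Of 24 interferon-induced genes, 23 had a positive value in KO against control on HFD (median 0.44), 20 on chow (median 0.53), 22 in HFD against chow controls (median 0.86) and 24 in HFD against chow KO (median 0.71), with 0 past the adjusted threshold in any of them. The part of microglia and of interferon in the class I levels was not tested.

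Of 36 further antigen presentation genes listed, 33 were tested and 0 passed the adjusted threshold in any of the 6 comparisons. On chow 6 were higher in KO at an unadjusted edgeR p under 0.05, against 6.84% of all genes. They were the proteasome activator genes Psme1 (0.39 ± 0.10) and Psme2 (0.45 ± 0.14), the lysosomal protease genes Ctsl (0.41 ± 0.10), Ctss (0.53 ± 0.20) and Lgmn (0.26 ± 0.09), and Procr (0.98 ± 0.31), a relative of class I that binds protein C. Their edgeR adjusted p was 0.263 to 0.313. Ctss, which cuts the invariant chain, was also higher on HFD in controls at that threshold (0.68 ± 0.18), as were Ctsl, Lgmn, Psme1 and Hfe. These 5, with edgeR adjusted p of at least 0.563, stand against 4.16% of all genes. On HFD 0 of the 33 had an unadjusted edgeR p under 0.05 for KO against control, as did 1.66% of all genes. KO against control on chow and HFD against chow in controls both use the chow controls, so they are not independent.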

How the data were processed

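The authors deposited a table of raw read counts with RPKM values beside them. RPKM equalled count per length plus 1 base and per total to a relative difference of 3.22e-13 and was not tested. The submitters' processing notes name STAR, STAR-Fusion, Subread, FastQC, edgeR and mm10, with no versions. No source used here gives the annotation, the strand setting or the filters on reads, so reads of genes that overlap on opposite strands, which 15 members do, cannot be told apart. Libraries were made with Takara SMART-Seq v4, per the labels' protocols. All 13 libraries entered 1 edgeR 4.0.16 quasi-likelihood fit (R 4.3.3, limma 3.58.1, TMM, default expression filter, 4 groups plus the sex letter), with Benjamini-Hochberg adjustment over 23622 genes and a threshold of 0.05, tested first on simulated data. p-values measure the spread between mice. TPM was computed from the deposited counts and gene lengths (the authors' length column) to compare genes. Gene coordinates are from GENCODE M21 (GRCm38), and 50-base words were compared with its transcripts. Alternatives were RLE factors, library totals, no filter, DESeq2 1.42.0, voom, no sex term, sex from the reads, only the groups compared, and libraries left out. The members, lists and tests were chosen with earlier results of these data known. Pathway genes, genes with an unadjusted p under 0.05, on or off genes and genes with a mean of at least 1 CPM were named.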

Additional observations from a re-analysis of the deposited data

How the results depend on the processing

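In all 6 comparisons 0 members passed the adjusted threshold under each of the 21 or 22 alternatives run. Of 853 refits of the 39 member fold changes printed with a test, 845 kept their sign and 8 changed it. The members' other fold changes are not in this count. Leaving out single libraries gave -0.19 to 0.64 for H2-K1, -0.04 to 0.57 for H2-D1 and -0.05 to 0.49 for B2m in KO against control on HFD. It gave -0.89 to 0.06 for the H2-K1 interaction, and -0.64 to 2.70 for H2-Aa and -0.45 to 2.67 for Cd74 in HFD against chow controls. Tapbp and H2-T23 in KO against control on chow became -0.06 without both doubted libraries, and lay between 0.02 and 0.30 and between 0.06 and 0.47 with single libraries left out. The cause was not tested. Counts of members with an unadjusted p under 0.05 ran over 0 to 4 (KO against control on HFD), 0 to 11 (chow), 0 to 8 (mean of both), 0 to 1 (interaction), 2 to 13 (HFD against chow controls) and 0 to 12 (HFD against chow KO). The highest counts for KO against control on chow and for HFD against chow KO came with only the groups compared in the fit. There 2386 of 22421 and 1634 of 23602 genes tested had such a p. At the other highest counts the shares of the genes then tested were 3.32% (KO against control on HFD) and 8.41% or 12.6% (mean of both). They were 6.54% or 7.19% for the interaction and 8.11% or 10.3% for HFD against chow controls. The counts of members without overlap, and their values with libraries left out, were added after seeing the data. No paired analysis was possible because the labels give no replicate numbers, and a shared mouse number ties only 1 KO mouse to 1 control mouse. Members under 1 CPM rest on few reads, 8 to 28 for H2-M5, and changes in them below the spread between mice were not detectable at this depth.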
